A study of Mus musculus with 36 samples.

Results

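The genes of cholesterol synthesis and of the SREBP2 system were followed in mouse liver over the day, in wild-type mice and in Bmal1 knockout mice. They were the 29 genes of a list of mevalonate and sterol enzymes, SREBP2 and the proteins that process it, sterol carriers and cholesterol esterifying enzymes, each taken from the deposited table by its symbol. All 29 were among the 21654 genes listed, and all 29 passed the filter on low counts that left 13201 genes for testing. Sc4mol and Sc5d are the symbols used here for sterol C4-methyl oxidase and sterol C5-desaturase.

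RNA was taken from the livers of 36 C57BL/6 mice kept under 12 h of light and 12 h of darkness with free access to food. Each of the 12 groups held 3 mice of 1 genotype, killed at Zeitgeber time (ZT, hours after lights on) 0, 4, 8, 12, 16 or 20. The 18 wild-type (WT) and 18 Bmal1 knockout (KO) mice each comprised 9 males and 9 females by label. They were aged 6.4 to 13.9 weeks (WT) and 8 to 13.9 weeks (KO) and weighed 19.8 to 29.2 g (WT) and 13.7 to 26.5 g (KO). The title of the study calls the knockout prenatal, and its growth protocol abbreviates it as cKO. The labels name neither the deleted exons nor a Cre driver or a tissue, so that the liver's own loss of Bmal1 and its loss elsewhere in the body cannot be told apart. Mice of 1 group were separate animals, and the 36 came from 20 cages.

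Cells make cholesterol from acetyl-CoA through mevalonate, isoprenoid units, squalene and lanosterol. SREBP2, the product of Srebf2, is a transcription factor held in the endoplasmic reticulum by SCAP and the INSIG proteins. When sterols are low, SCAP carries it to the Golgi, where the proteases encoded by Mbtps1 and Mbtps2 release the part that enters the nucleus and activates the synthesis genes and Insig1. The liver is a main site of this synthesis, and BMAL1 is a core activator of the circadian clock.

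Each library held between 12657858 and 12839653 reads in genes. Arntl, the symbol under which Bmal1 is listed, ranged over group means from 0.996 CPM (reads of the gene per 1000000 in the scaled library) at ZT8 to 38.8 CPM at ZT20 in WT and from 16.7 to 19.7 CPM in KO. Reads were therefore still present at the locus, and the exons that gave them cannot be seen in a count per gene. The library labelled WT ZT16 replicate 3 and female held 4 reads of Xist and 1874 of the Y-linked Ddx3y. It was used as labelled, and no call among the members over all times changed without it, while the members called at ZT16 went from 1 to 3 and those that differed between the sexes in WT from 1 to 3. The 12 libraries of ZT16 and ZT20 stood apart from the other 24 on the first principal component, which carried 32.8% of the variance, and their counts depended differently on the GC content of the genes. Genotypes were compared at the same times, but the 12 libraries also differed among themselves on that component (14.2 to 103, the other 24 -37.2 to -12.5). Comparisons at ZT16 and ZT20 may therefore hold part of this variation, and the rhythm values below depend on these libraries. Of 6 measured hepatocyte markers 0 differed between genotypes over all times (lowest adjusted p = 0.052, 1 at an unadjusted p under 0.05).

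Stretches of 6 promoters are shown because they carry sites known for this gene group and belong to genes at both ends of the results. They are those of Insig1, the gene with the lowest adjusted p among the 29 members, and of Idi1, Mvd and Cyp51, enzymes that fell. The other stretches are those of Mvk, an enzyme that did not pass the test, and Insig2, which rose. Each is the 250 bases before the RefSeq start on the gene's strand, 5′ to 3′, in build GRCm38.p6. Capitals mark CCAAT on either strand (read as ATTGG on the other), the site of the factor NF-Y, and in Insig1 also the run in which AGGTCA, a site of nuclear receptors, and CACGTG, the E-box that BMAL1 and its partner bind, overlap.
Insig1, chr5:28071162-28071411, plus strand: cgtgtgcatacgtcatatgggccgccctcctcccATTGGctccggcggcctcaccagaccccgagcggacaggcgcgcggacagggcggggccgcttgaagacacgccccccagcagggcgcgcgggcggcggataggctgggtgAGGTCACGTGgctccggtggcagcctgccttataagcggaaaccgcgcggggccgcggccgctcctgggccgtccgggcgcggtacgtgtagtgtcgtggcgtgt
Idi1, chr13:8885356-8885605, plus strand: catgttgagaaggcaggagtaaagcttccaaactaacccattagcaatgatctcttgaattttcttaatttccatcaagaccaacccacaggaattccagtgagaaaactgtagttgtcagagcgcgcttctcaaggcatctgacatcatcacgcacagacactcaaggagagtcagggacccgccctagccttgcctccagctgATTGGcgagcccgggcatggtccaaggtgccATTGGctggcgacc
Mvd, chr8:122443423-122443672, minus strand: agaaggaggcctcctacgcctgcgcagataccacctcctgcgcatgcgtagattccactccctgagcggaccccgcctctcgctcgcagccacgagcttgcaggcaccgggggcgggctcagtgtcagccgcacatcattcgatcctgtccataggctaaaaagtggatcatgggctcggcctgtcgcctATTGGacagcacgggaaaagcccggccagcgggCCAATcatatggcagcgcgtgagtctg
Cyp51, chr5:4104698-4104947, minus strand: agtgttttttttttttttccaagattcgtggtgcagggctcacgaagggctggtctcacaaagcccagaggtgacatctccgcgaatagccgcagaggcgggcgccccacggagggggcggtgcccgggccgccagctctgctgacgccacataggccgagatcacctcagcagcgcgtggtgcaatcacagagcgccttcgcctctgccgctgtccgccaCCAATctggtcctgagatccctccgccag
Mvk, chr5:114444019-114444268, plus strand: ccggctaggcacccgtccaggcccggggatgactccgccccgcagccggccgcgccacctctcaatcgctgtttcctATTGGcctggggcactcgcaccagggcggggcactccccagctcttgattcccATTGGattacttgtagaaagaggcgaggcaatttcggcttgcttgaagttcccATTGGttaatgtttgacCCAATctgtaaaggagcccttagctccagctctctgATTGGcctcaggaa
Insig2, chr1:121332590-121332839, minus strand: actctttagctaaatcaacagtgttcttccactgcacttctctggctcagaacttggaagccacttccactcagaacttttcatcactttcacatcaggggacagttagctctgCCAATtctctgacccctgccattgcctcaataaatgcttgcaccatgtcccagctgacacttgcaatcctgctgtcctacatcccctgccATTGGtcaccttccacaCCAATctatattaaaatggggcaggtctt
RefSeq promoters were found for 24 of the 29 members. Over windows from 250 bases before to 50 after the start, searched on both strands, CCAAT was present in 19 of 24 (79.2%), against 37.9% of 27025 promoters in the table. It was present in 15 of the 17 matched members that fell in KO and in 4 of the 7 that were not called. GGGCGG, a GC box, was present in 21 of 24 (87.5%), against 35.9% of all promoters. CACGTG was present in 4 of 24 (16.7%), against 7.24%, and AGGTCA in 2 of 24 (8.33%), against 16%. TCACNCCAC, 1 form of the sterol regulatory element, had no match in the 24 and was present in 1.22% of all. In Insig1 the AGGTCA site began 105 bases and the overlapping CACGTG site 101 bases before the start. These matches describe the letters in the windows and not binding.

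The first question was how the members' RNA levels differed between genotypes over the whole day. Of the 29 members, 21 fell in KO, 0 rose and 8 did not pass the test, which compared the mean of the 6 times between genotypes with sex in the model (edgeR's quasi-likelihood test, Benjamini-Hochberg adjusted p below 0.05). Over all genes tested 35.7% were called, 18.1% lower and 17.6% higher in KO. The median log2 difference (KO minus WT) of the members was -0.66, and that of all genes tested was 0.01. By role, 5 of 7 isoprenoid enzymes, 3 of 3 enzymes of squalene and lanosterol formation, 9 of 9 enzymes from lanosterol to cholesterol, 2 of 5 genes of SREBP2 processing, 1 of 3 transport genes and 1 of 2 esterifying enzymes fell.

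**Figure D1:**
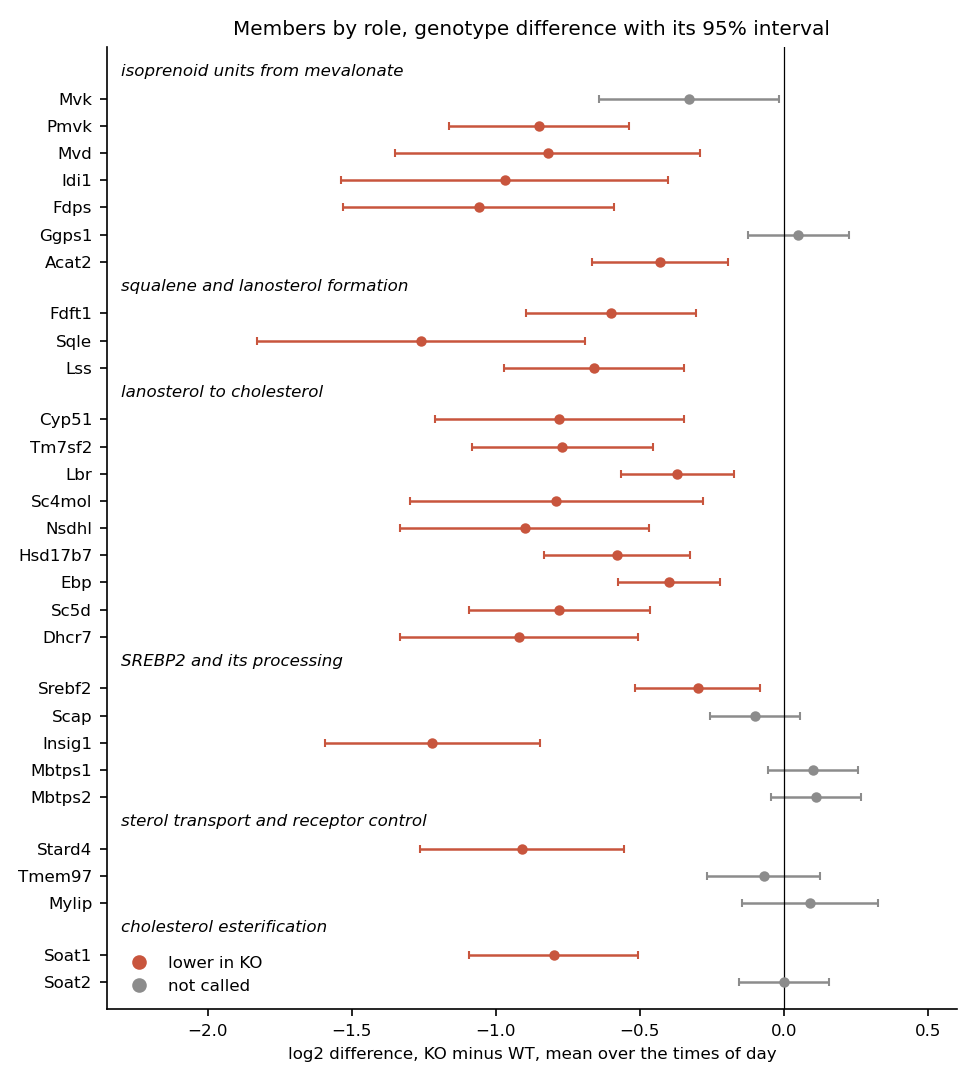
Log2 difference between genotypes over all times (KO minus WT, x axis) for the 29 members, grouped by role (y axis), with points for the estimate and bars for 1.96 standard errors, coloured where the test passed and grey where it did not. All 21 called members lie left of 0, from Sqle at -1.26 to Srebf2 at -0.30.

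Kupffer cell markers moved with genotype as well: 10 of 10 were lower in KO, by 0.49 to 1.59 on the log2 scale, with summed levels of 117 to 475 CPM in WT (median 251) and 82.2 to 387 CPM in KO (median 151). Of the endothelial and of the stellate markers, 3 of 7 each were lower, where 18.1% of all genes tested were. Of 5 cholangiocyte markers 1 was lower and 1 higher, and of 5 erythroid markers 3 were tested and 1 was lower. Of 4 pancreatic markers only Cela1 was tested and was higher, with 2.04 in males (called) and -0.28 in females (not called). Cpa1, Pnlip and Cpb1, not tested, were at 2.64, 6.5 and 21.45 CPM in WT ZT20 replicate 3. In every other mouse they were at 0.228 CPM or less. The 4 adipocyte markers were too low to test, with sums of at most 0.581 CPM in WT and 5.97 CPM in KO. The hepatocyte markers summed to a median of 21300 CPM in WT and 20500 CPM in KO. Their part in the result was not tested. In whole liver, fewer cells of a type and less RNA per cell cannot be told apart.

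Among the isoprenoid enzymes, Fdps, farnesyl diphosphate synthase, showed one of the wider differences. Its level over the 18 WT mice was 90.3 CPM at the lowest, 215 CPM at the median and 362 CPM at the highest. In the 18 KO mice these were 12.4, 101.5 and 291 CPM. The ranges overlapped, and the KO median lay close to the lowest WT mouse. The difference was -1.06 ± 0.24 (log2, SE; adjusted p = 0.00089), 2.09-fold lower.

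Idi1, isopentenyl diphosphate isomerase, ranged from 13.4 to 176 CPM in WT (median 71.9) and from 2.58 to 72.8 CPM in KO (median 45.2), a difference of -0.97 ± 0.29 (adjusted p = 0.0095). Pmvk, phosphomevalonate kinase, differed by -0.85 ± 0.16 (adjusted p = 0.00016), with medians of 65.4 CPM in WT and 34.3 CPM in KO. Mvd, the decarboxylase that follows it, differed by -0.82 ± 0.27 (adjusted p = 0.021). Acat2, which joins acetyl-CoA units before the mevalonate steps, fell by 0.43 ± 0.12 (adjusted p = 0.0077), and its reads are uncertain because it overlaps Tcp1 and resembles Acat3. The pair that did not pass the test were Mvk, mevalonate kinase, at -0.33 ± 0.16 (adjusted p = 0.12), and Ggps1, which leads away from sterols to geranylgeranyl groups, at 0.05 ± 0.09 (adjusted p = 0.71).

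Sqle encodes squalene epoxidase, a rate-controlling step after mevalonate, on chromosome 15 (59146632 to 59162747, mm9). Sqle ranged from 19.2 to 204 CPM in WT (median 100.3) and from 3.60 to 127 CPM in KO (median 38.0). The groups overlapped, with the KO median below that of WT. Its difference of -1.26 ± 0.29 (adjusted p = 0.0013), 2.39-fold lower, was the widest of the 29. Fdft1, squalene synthase, fell by 0.60 ± 0.15 (adjusted p = 0.0021) and Lss, lanosterol synthase, by 0.66 ± 0.16 (adjusted p = 0.002).

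All 9 enzymes between lanosterol and cholesterol fell, by 0.37 to 0.92 on the log2 scale. Dhcr7, the reductase of the last step of 1 branch, had the widest difference, -0.92 ± 0.21 (adjusted p = 9e-04), with medians of 80.6 CPM in WT and 43.5 CPM in KO. Nsdhl, a C4-demethylation enzyme, differed by -0.90 ± 0.22 (adjusted p = 0.0021). Sc4mol differed by -0.79 ± 0.26 (adjusted p = 0.017) and Cyp51, lanosterol demethylase, by -0.78 ± 0.22 (adjusted p = 0.0067). Sc5d fell from a median of 674 CPM in WT to 402 CPM in KO, -0.78 ± 0.16 (adjusted p = 0.00041). Tm7sf2 and Lbr both encode sterol C14-reductases, and Lbr is also a protein of the nuclear envelope. Tm7sf2 differed by -0.77 ± 0.16 (adjusted p = 0.00042) and Lbr by -0.37 ± 0.10 (adjusted p = 0.0035), the narrowest of the 9. Hsd17b7, a ketoreductase, was at -0.58 ± 0.13 and Ebp, the sterol isomerase, at -0.40 ± 0.09, with adjusted p of 0.00078 and 0.00074.

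The regulators moved unequally. Insig1, the sterol-induced retention protein, lies on chromosome 5 (28397952 to 28405201, mm9). In WT it was at 567, 515 and 476 CPM at ZT0, 438, 784 and 480 at ZT4, and 594, 320 and 500 at ZT8. It was at 312, 556 and 880 CPM at ZT12, 911, 899 and 578 at ZT16, and 542, 597 and 676 at ZT20. In KO the values were 180, 286 and 198 CPM at ZT0, 346, 273 and 330 at ZT4, and 289, 89.9 and 275 at ZT8, then 239, 338 and 288 at ZT12, 185, 392 and 240 at ZT16, and 209, 347 and 45.9 at ZT20. At 5 of the 6 times every KO mouse lay below every WT mouse, and at ZT12 the lowest WT mouse lay below 1 KO mouse. The difference over all times was -1.22 ± 0.19 (adjusted p = 1.1e-05), 2.33-fold lower. Insig1, Stard4 and Soat1 were the members called in each of males, females, mice of 13.9 weeks and younger mice.

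Srebf2 itself fell by 0.30 ± 0.11 (adjusted p = 0.027), 1.24-fold. Leaving out WT ZT12 replicate 2 or WT ZT16 replicate 2 ended this call (-0.27, adjusted p = 0.051, and -0.26, adjusted p = 0.056). Scap was at -0.10 ± 0.08 (adjusted p = 0.34), Mbtps1 at 0.10 ± 0.08 (adjusted p = 0.37) and Mbtps2 at 0.11 ± 0.08 (adjusted p = 0.33), and none of these 3 passed the test.

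Stard4, a cytosolic carrier of sterols, was at 133, 144 and 134 CPM at ZT0, 181, 204 and 132 at ZT4, and 215, 196 and 206 at ZT8 in WT. It was at 129.5, 176 and 164 CPM at ZT12, 322, 186 and 228 at ZT16, and 189, 150 and 234 at ZT20. In KO it was at 73.4, 131 and 86.8 CPM at ZT0, 103, 115 and 119 at ZT4, 104, 28.3 and 108 at ZT8, 60.5, 109 and 95.7 at ZT12, 93.9, 130 and 140 at ZT16, and 94.2, 143 and 18.1 at ZT20. Every KO mouse lay below every WT mouse at all 6 times. The difference was -0.91 ± 0.18 (adjusted p = 2e-04). Tmem97, a sterol-regulated membrane protein, was at -0.07 ± 0.10 (adjusted p = 0.63), and Mylip, a ubiquitin ligase of lipoprotein receptors that responds to the sterol receptor LXR, at 0.09 ± 0.12 (adjusted p = 0.59).

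Soat1 and Soat2 encode the enzymes that esterify cholesterol, and Soat2 is the one known from hepatocytes. Soat1 ranged from 0.664 to 4.75 CPM in WT (median 2.18, 8 to 65 reads) and from 0.659 to 2.43 CPM in KO (median 1.16, 8 to 31 reads), so that counting error is large. It fell by 0.80 ± 0.15 (adjusted p = 0.00014), while Soat2 was at 0.00 ± 0.08 (adjusted p = 0.99). Soat1 is also expressed in macrophages, whose Kupffer cell markers were lower in the same mice, and their part in this difference was not tested.

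The next question was at which times of day the members differed. With 3 mice against 3 at each time, no member was called at ZT0 (1.97% of all genes, 0.909% lower in KO), ZT4 (3.56%, 1.24% lower) or ZT8 (8.57%, 3.95% lower). The calls were 2 at ZT12 (11.9% of all genes, 5.86% lower), 1 at ZT16 (8.61%, 4.58% lower) and 2 at ZT20 (3.38%, 1.75% lower), and each of these 5 was lower in KO. At an unadjusted p under 0.05 the counts were 4, 1 and 4 of 29 in the light phase before ZT12, and 12, 13 and 20 at ZT12, ZT16 and ZT20. DESeq2 called 0, 0 and 1 at the first 3 times and 9 at ZT20. No share of all genes is given here for DESeq2 counts at single times or for any count at an unadjusted p. Such counts cannot be read as particular to the members. The median log2 difference of the members lay nearest 0 at ZT4, with -0.04, was -0.46 at ZT0 and -0.54 at ZT8, and reached -0.74, -0.68 and -1.16 at ZT12, ZT16 and ZT20. The test of whether the difference varied with time called 0 of 29 members (1.67% of all genes), with a lowest adjusted p of 0.46 and 1 member, Tmem97, at an unadjusted p under 0.05, and DESeq2 called 0. The change of the median from ZT4 to ZT20 was therefore not established.

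**Figure D2:**
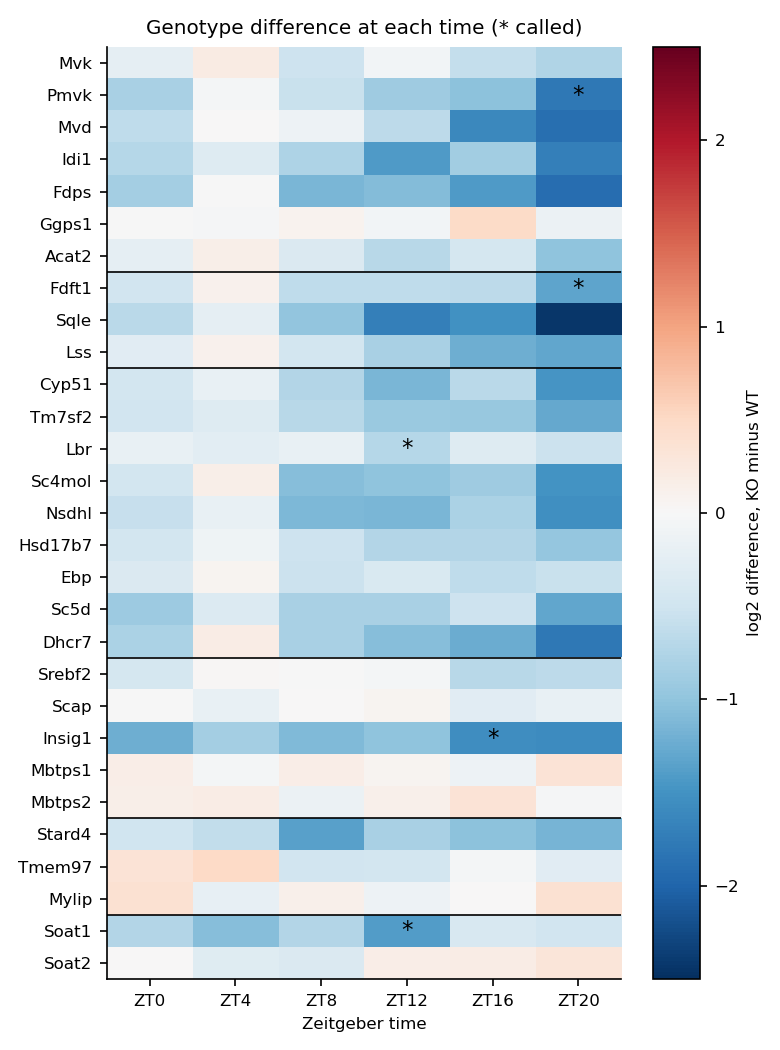
Log2 difference between genotypes (KO minus WT, colour scale) for each of the 29 members (y axis) at the 6 times (x axis, ZT in hours), with an asterisk where the test passed. The median over the members goes from -0.04 at ZT4 to -1.16 at ZT20, and 5 of the cells carry an asterisk.

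At ZT20, Pmvk was at 118, 76.6 and 59.7 CPM in WT and at 30.4, 24.5 and 18.4 CPM in KO. The groups did not overlap, and the difference was -1.78 ± 0.41 (adjusted p = 0.011), 3.43-fold lower. Without WT ZT20 replicate 1 or KO ZT20 replicate 3 it was -1.59 (adjusted p = 0.058) and -1.55 (adjusted p = 0.097). Fdft1 was at 274, 130 and 172 CPM in WT and 97, 87.3 and 38.2 CPM in KO at that time, a difference of -1.31 ± 0.37 (adjusted p = 0.045). Leaving out any 1 of 17 libraries ended that call. Sqle differed by -2.44 ± 0.75 at ZT20, the widest estimate, and did not pass (adjusted p = 0.073): its WT mice were at 187, 54.2 and 204 CPM and its KO mice at 37.9, 32.4 and 3.60 CPM.

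At ZT12, Soat1 was at 0.663, 2.66 and 4.75 CPM in WT and 0.769, 1.21 and 0.880 CPM in KO. The lowest of the 6 mice was WT, and the difference of -1.39 ± 0.38 (adjusted p = 0.016) became -0.81 (adjusted p = 0.25) without WT ZT12 replicate 3 and -1.15 (adjusted p = 0.097) without KO ZT12 replicate 1. Lbr was at 13.8, 18.2 and 23.5 CPM in WT and 12.5, 10.3 and 10.9 CPM in KO, with no overlap and a difference of -0.71 ± 0.24 (adjusted p = 0.047), a call that any 1 of 23 left-out libraries ended. At ZT16 Insig1 differed by -1.55 ± 0.47 (adjusted p = 0.039). Leaving out WT ZT16 replicate 1 or 2, KO ZT16 replicate 1 or 3 or KO ZT20 replicate 1 took this to an adjusted p of 0.05 to 0.17.

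Separation of the 3 KO from the 3 WT mice was counted at each time. All KO mice lay below all WT mice for 9 members at ZT0 (11.1% of all genes), 4 at ZT4 (11%) and 11 at ZT8 (15.2%). The same held for 3 members at ZT12 (13.1%), 10 at ZT16 (8.14%) and 16 at ZT20 (6.23%). All KO mice lay above all WT mice for 2 members at ZT0 (14.3%) and 1 at ZT4 (14.5%), and for 0 at ZT8 (16.6%), ZT12 (15.1%), ZT16 (8.97%) and ZT20 (6.14%). WT ZT12 replicate 1 was the lowest of its group for 19 of 19 enzymes, and WT ZT4 replicate 3 was the lowest of its group for 18 of 19. Their part in the counts at ZT12 and ZT4 was not tested.

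**Figure D3:**
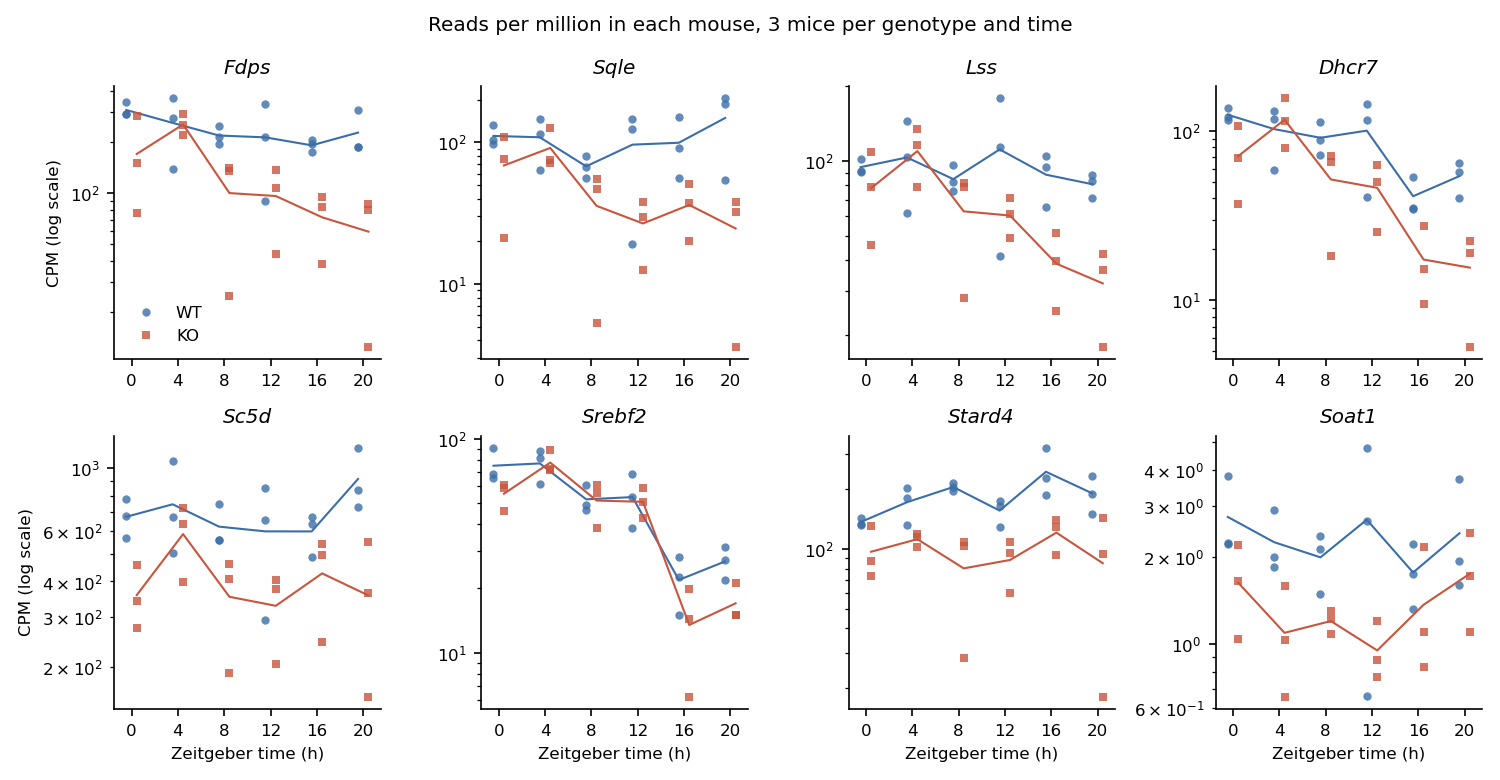
Level in CPM (y axis, log scale) against ZT in hours (x axis) for Fdps, Sqle, Lss, Dhcr7, Sc5d, Srebf2, Stard4 and Soat1, with 1 point per mouse, 3 per genotype and time, and lines through the group means. Stard4 is separated between genotypes at every time. Sqle and Fdps overlap at ZT4 and ZT12, and Sqle also at ZT0. Both have single KO mice far below the rest at ZT8 and ZT20.

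The 19 enzymes of the pathway varied widely between mice of 1 group. In 2 of the 6 WT groups and 2 of the 6 KO groups, 1 mouse was the lowest of its 3 for at least 18 of the 19. For the other KO groups, ZT4, ZT12, ZT16 and ZT20, the largest such number was 15, 17, 17 and 17. For the other WT groups, ZT0, ZT8, ZT16 and ZT20, it was 9, 15, 10 and 13. For each mouse the median over the 19 of its deviation in log2 CPM from each gene's mean over the 36 mice was taken. The lowest mouse was KO ZT20 replicate 3 at -2.23, followed by KO ZT8 replicate 2 at -1.50, KO ZT16 replicate 1 at -1.18 and KO ZT12 replicate 1 at -1.09. The highest was WT ZT20 replicate 1 at 1.01, and the lowest WT mouse was WT ZT12 replicate 1 at -0.74. KO ZT20 replicate 3 was the lowest of all 36 mice for 12 of the 19 enzymes, and KO ZT8 replicate 2 was among the 5 lowest for 18.

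Within KO at ZT20 the highest mouse exceeded the lowest by 19.5-fold for Idi1, 14.4-fold for Sc4mol and 10.5-fold for Sqle. Over the 19 enzymes the median ratio of the highest to the lowest mouse was 1.19 to 2.91 in the 6 WT groups and 1.57 to 3.48 in the 6 KO groups. At ZT8, Fdps in KO was at 140, 24.8 and 136 CPM and Sqle at 46.6, 5.34 and 54.9 CPM, so that in both the second mouse was far below the others. KO ZT20 replicate 3 weighed 15.7 g and KO ZT12 replicate 1 weighed 13.7 g, the 2 lightest mice, aged 13.9 and 8 weeks. KO ZT8 replicate 2 weighed 22.6 g and KO ZT16 replicate 1 weighed 23.5 g, and both were 8 weeks old. KO ZT4 replicate 1, also 8 weeks old, had a median deviation of 0.44. Without the 2 mice under 16 g, 19 members were lower over all times, and without KO ZT8 replicate 2 and KO ZT20 replicate 3, 20 were, both in fits added after the data were seen. Over all genes tested, 4787 of 13373 and 4741 of 13384 were called in either direction in these fits.

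**Figure D4:**
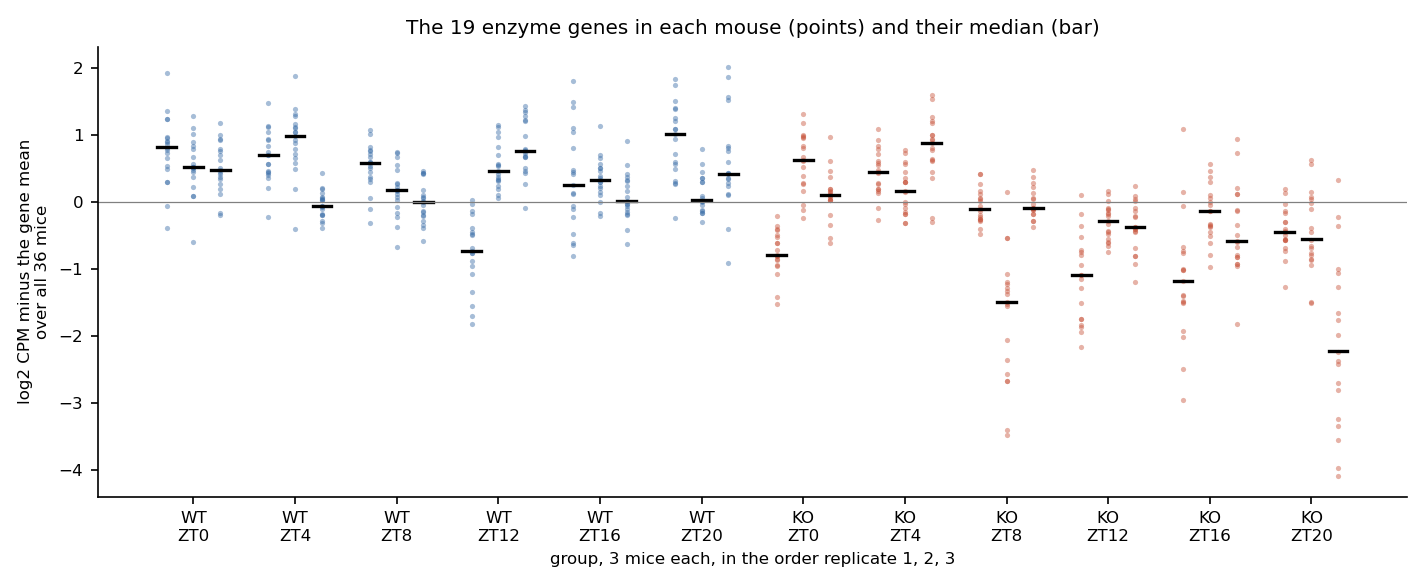
Log2 CPM minus the gene's mean over all 36 mice (y axis) for the 19 enzymes, 1 point per enzyme with a bar at their median, in each mouse by group (x axis, replicates 1 to 3 in each group). The bar of KO ZT20 replicate 3 is lowest at -2.23, and those of the WT mice lie between -0.74 and 1.01.

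Rhythm was measured with a cosine of 24 h fitted to each genotype. In WT 8 of 29 members were called (56.4% of all genes): Mvk, Ggps1, Lbr, Srebf2, Scap, Mbtps1, Mbtps2 and Soat2. In KO 17 of 29 were called (48.4% of all genes), among them the enzymes Pmvk, Mvd, Fdps, Fdft1, Lss, Tm7sf2, Nsdhl, Ebp and Dhcr7. The difference between the genotypes' rhythms was called for 0 of 29 (2.23% of all genes), with a lowest adjusted p of 0.28 and 4 at an unadjusted p under 0.05, and DESeq2 called 0. The larger count in KO is thus not a tested difference.

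Srebf2 had a peak-to-trough ratio of 3.22 in WT, peaking at ZT4.6 (adjusted p = 6e-04), and of 5.24 in KO, peaking at ZT5.5 (adjusted p = 8.6e-05). Scap peaked at ZT5.5 in WT (3.60-fold, adjusted p = 2.2e-05) and at ZT5.7 in KO (3.97-fold, adjusted p = 7e-05). Both were high at ZT0 to ZT12 and low at ZT16 and ZT20: Scap was at 85.0 to 164.5 CPM in the earlier WT mice and at 33.3 to 63.0 CPM in the later ones. Dhcr7 had a ratio of 6.29 in KO (adjusted p = 4e-04, peak at ZT4.9) and 2.34 in WT (adjusted p = 0.095). Mvd had a ratio of 4.66 in KO (adjusted p = 0.0054) and 2.36 in WT (adjusted p = 0.13). Insig1 and Stard4 were called in neither genotype.

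Ggps1 ran the other way, with a ratio of 1.74 and a peak at ZT17.3 in WT and a ratio of 2.05 and a peak at ZT16.5 in KO, and Mbtps2 peaked at ZT16.6 in WT and ZT16.8 in KO. These peaks and the troughs of Srebf2 and Scap fell on the ZT16 and ZT20 libraries that stood apart. With the GC trend removed 5 members were called in WT and 13 in KO. Without the ZT16 and ZT20 libraries, which left only ZT0 to ZT12 for a cosine of 24 h, 3 were called in WT and 0 in KO. The share of all genes called in these fits is not given here, so the lower counts cannot be read as particular to the members. A change with time of day and a difference of those libraries cannot be told apart here.

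Sex by label and age class were compared because both were mixed within most groups. WT ZT16 was an exception in age class, as its mice, aged 8, 6.4 and 10.9 weeks, were all among the younger mice. Its only mouse labelled female, replicate 3, held 4 reads of Xist and 1874 of Ddx3y, which go against that label. In males 3 members fell (21.3% of all genes called, 10.9% lower), namely Insig1, Stard4 and Soat1, and the members' median difference was -0.42. In females 20 fell (19.6% of all genes called, 9.65% lower), with a median of -0.80. The test of the difference between the sexes called 0 of 29 (0.0985% of all genes), with a lowest adjusted p of 0.68 and 0 at an unadjusted p under 0.05, and DESeq2 called 0. Sqle, for example, differed between genotypes by -0.90 ± 0.44 in males and -1.61 ± 0.44 in females, and the difference between these was -0.71 ± 0.66. Within WT 1 member differed between sexes (3.99% of all genes, 2.07% higher in females): Soat1 was higher in females by 0.78 ± 0.23 (adjusted p = 0.047), a call that any 1 of 24 left-out libraries ended. The Kupffer cell markers had a median difference of 0.66 in the same direction between the WT sexes, with 10 of 10 at an unadjusted p under 0.05 and 1 called, and their part in it was not tested. Within KO 0 did (6.46% of all genes), with 2 at an unadjusted p under 0.05 and 1 called by DESeq2.

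Mice of 13.9 weeks, 8 WT and 11 KO, and younger mice, 10 WT and 7 KO, were compared in the same way. At 13.9 weeks 5 members fell, Tm7sf2, Sc5d, Insig1, Stard4 and Soat1 (18% of all genes called, 9.04% lower), with a median difference of -0.44. In younger mice 20 fell (20.1% of all genes called, 10.2% lower), with a median of -0.91. The test of the difference between the ages called 0 members (0% of all genes), with 3 at an unadjusted p under 0.05, and DESeq2 called 0. For Dhcr7 the genotype difference was -0.64 ± 0.28 at 13.9 weeks and -1.46 ± 0.31 in younger mice, a difference of 0.81 ± 0.43 with an adjusted p of 0.68. Within KO the members' median difference between mice of 13.9 weeks and younger mice was 0.44, with 0 called (0% of all genes), a lowest adjusted p of 0.3 and 12 at an unadjusted p under 0.05. Within WT this median was 0.01, and 0 were called (0% of all genes) or at an unadjusted p under 0.05. DESeq2 called 0 in either genotype. These age differences within a genotype were tested after the data were seen. No share of all genes is given here for their counts at an unadjusted p.

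Other genes of the pathway came from 4 lists of 34 genes in all, of which 15 were called over all times (44.1%, against 35.7% of all genes tested), 9 lower and 6 higher, with a median difference of -0.05. Of 6 genes described here that feed acetyl-CoA or electrons into sterol synthesis, 5 fell. Aacs, which makes acetoacetyl-CoA in the cytosol, differed by -2.16 ± 0.28 (adjusted p = 7.7e-07), Acss2, acetyl-CoA synthetase, by -1.21 ± 0.20 (adjusted p = 2.9e-05) and Acly, ATP citrate lyase, by -0.83 ± 0.19 (adjusted p = 0.0011). Por, which passes electrons to CYP51 and squalene epoxidase, differed by -0.90 ± 0.12 (adjusted p = 5.8e-07). Cyb5r3, cytochrome b5 reductase, was at -0.37 ± 0.12 (adjusted p = 0.018). Cyb5 was at -0.18 ± 0.12 (adjusted p = 0.25). Aacs stood at 139, 170 and 358 CPM in WT at ZT12 and at 9.23, 49.4 and 22.2 CPM in KO, with no overlap.

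Of 7 genes of sterol sensing and INSIG turnover described here, 3 were called, 1 lower and 2 higher, where 35.7% of all genes were called. Insig2, the second retention protein, which responds less to SREBP2, rose by 1.62 ± 0.10 (adjusted p = 2.3e-13), 3.07-fold, the opposite direction to Insig1. Insig2 in WT was at 348, 451 and 424 CPM at ZT0, 199, 153 and 201 at ZT4, 85.8, 78.8 and 67.8 at ZT8, 87.0, 112 and 55.1 at ZT12, 286, 228 and 232 at ZT16, and 566, 404 and 662 at ZT20. In KO it was at 586, 450 and 463 CPM at ZT0, 486, 461 and 489 at ZT4, 560, 441 and 600 at ZT8, 572, 354 and 757 at ZT12, 1035, 877 and 823 at ZT16, and 721, 995 and 852 at ZT20. From ZT4 to ZT20 every KO mouse lay above every WT mouse, and at ZT0 the groups overlapped. The other called genes were Erlin1, which takes part in INSIG-linked degradation (-0.62 ± 0.09, adjusted p = 1.6e-06), and Faf2 (0.12 ± 0.04, adjusted p = 0.023), whose call was lost without KO ZT16 replicate 1 (0.10, adjusted p = 0.051). Rnf145, Rnf139, Erlin2 and Pgrmc1 were at -0.26, -0.03, -0.02 and -0.13, none called.

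**Figure D5:**
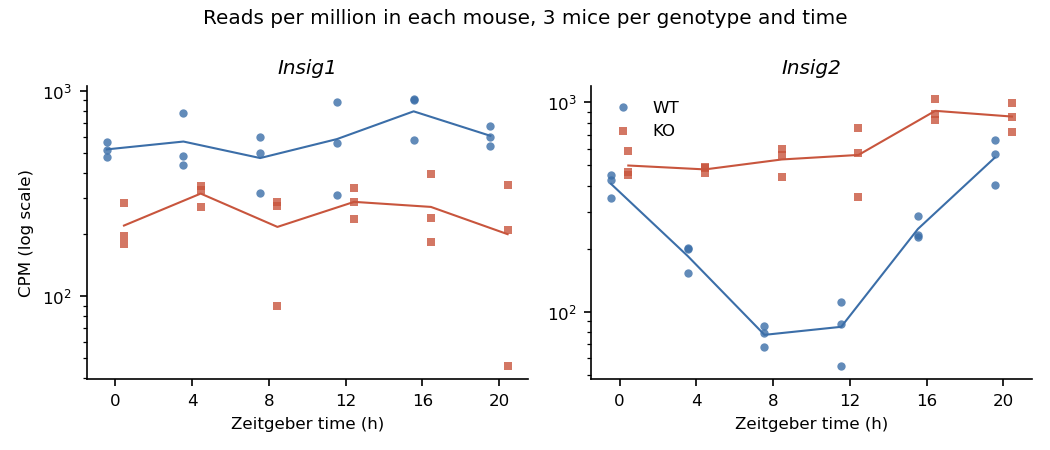
Level in CPM (y axis, log scale) of Insig1 and Insig2 against ZT in hours (x axis), with 1 point per mouse, 3 per genotype and time, and lines through the group means. For Insig1 the KO mice lie below the WT mice at 5 of 6 times, and for Insig2 they lie above them from ZT4 to ZT20.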

How the data were processed

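Liver RNA of 36 mice was sequenced with a stranded mRNA kit, per the labels' protocols. The values are counts of reads per gene that the authors deposited as 1 table. CASAVA, STAR 2.4.0f1 and build mm9 stand in the submitters' processing notes, and the counting step is not given in the sources used here. The table held 0 columns of other samples.

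Counts were fitted with edgeR 4.0.16 in R 4.3.3 (quasi-likelihood, TMM scaling, limma 3.58.1) after its filter at a minimum count of 10 and a minimum total of 15, which left 13201 of 21654 genes. The fits used the means of the 12 groups and sex, a cosine of 24 h per genotype, sex within genotype, or age class within genotype. P-values were adjusted over all genes tested by the Benjamini-Hochberg method and called below 0.05. Reads per 1000000 (CPM) were computed here from the TMM-scaled library sizes. Library totals were nearly equal, so the depth behind each value follows from its CPM. Alternatives were DESeq2 1.42.0 and its size factors, other filters, sex, age or body weight terms, a GC trend removed, limma-voom with the cage as a block, subsets of mice and each library left out.

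All 29 members, the 34 genes of 4 other pathway lists and the cell marker lists were to be named whatever their test. The members and lists were chosen with earlier results of these data known. On simulated counts of all 13201 genes, for the genotype difference over all times, 83% of genes changed 1.5-fold and 97% of genes changed 2-fold were recovered, with 6.74% false calls. Promoter sequences are RefSeq's, in build GRCm38.p6, while gene coordinates are those of the table, in mm9. Replicates of every group differed by more than counting error, with a chi-square per degree of freedom of 10.5 to 216 over 36 pairs. Some genes are not reported here.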

Additional observations from a re-analysis of the deposited data

Results flagged for a closer look

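Insig2, which encodes an SREBP2 retention protein, showed a genotype difference that varied with time of day (edgeR's interaction test, adjusted p = 1.9e-05). KO minus WT was 1.38 at ZT4, 2.79 at ZT8, 2.72 at ZT12 and 1.87 at ZT16 on the log2 scale, each called. At ZT0 it was 0.29, and it was not called at ZT0 or ZT20. Its rhythm also differed between genotypes (adjusted p = 5.8e-07): the peak-to-trough ratio was 7.86 in WT, peaking at ZT21.4, and 1.93 in KO, peaking at ZT17.2.

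Por, which passes electrons to CYP51 and squalene epoxidase, had a genotype difference that varied with time (edgeR's interaction test, adjusted p = 0.002). Its called values were -2.03 at ZT8, -1.44 at ZT12 and -1.62 at ZT16. At ZT8 it was at 906, 544 and 689 CPM in WT and at 134, 183 and 195 CPM in KO, and at ZT20 the groups overlapped, with 116, 60.7 and 118 CPM in WT and 117, 42.8 and 158 CPM in KO. Without sex in the model the adjusted p for Por was 0.12.

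Abcg5, a part of the sterol exporter of the bile canaliculus, had a rhythm that differed between genotypes at an adjusted p of 0.05, just under the threshold before rounding. That call was lost without any 1 of 28 of the 36 libraries, with an adjusted p of up to 0.093.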

How the results depend on the processing

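Over all times, 21 members were lower in KO, and 20 to 22 were lower with each library left out. The count was 4 in males alone and 18 in females alone, 5 at 13.9 weeks alone and 20 in younger mice alone, and 16 without the ZT16 and ZT20 libraries. Over all genes, calls in either direction were 2482 of 13340 in males alone and 2397 of 13653 in females alone. They were 2876 of 13489 at 13.9 weeks alone and 1592 of 13631 in younger mice alone. Without the ZT16 and ZT20 libraries they were 5342 of 12981. Body weight as a term, the removal of mice under 16 g and the removal of the 2 lowest libraries were added after the data were seen and are marked as added. They gave 17, 19 and 20. Limma-voom, with or without the cage as a block (both added), called 21, the same genes.

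Counts at single times were less stable, and the shares of all genes under these alternatives are not given here. At ZT0 the count of 0 became 1 without the 2 lowest libraries (added), and stayed 0 with each library left out. At ZT8 the count of 0 became 1 with no filter, an age term, DESeq2, limma-voom with or without the cage (added), the GC trend removed or mice under 16 g removed (added), 2 without the 2 lowest libraries (added), and 0 to 1 with a library left out. At ZT12 the count of 2 became 1 with no filter, an age term or limma-voom with or without the cage (added), 0 without the sex term or the mice under 16 g (added), 4 without the 2 lowest libraries (added), and 0 to 4 with a library left out. At ZT16 the count of 1 became 0 with limma-voom with or without the cage (added), 2 with no filter or the GC trend removed, 3 with DESeq2, 4 with an age term or without mice under 16 g (added), 5 without the 2 lowest libraries (added), and 0 to 4 with a library left out. At ZT20 the count of 2 became 8 with no filter or limma-voom with the cage (added), 9 with DESeq2 or limma-voom without it (added), 4 with the GC trend removed, 1 without the sex term or with body weight (added), 0 without mice under 16 g or the 2 lowest libraries (added), and 0 to 9 with a library left out.

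Rhythm counts of 8 in WT and 17 in KO were 6 to 10 and 15 to 21 with a library left out. They were 5 in WT with the GC trend removed, and 3 in WT and 0 in KO without ZT16 and ZT20. Shares of all genes for these rhythm counts are not given here. The sex difference in WT, 1 member, became 0 with no filter, an age term, the GC trend removed, body weight or the 2 lowest libraries removed (the last pair added), 3 with DESeq2, 6 without ZT16 and ZT20, and 0 to 3 with a library left out. In KO, 0 became 1 at a minimum of 1 CPM, with an age term, DESeq2, limma-voom with or without the cage (added) or the GC trend removed, and 0 to 1 with a library left out. The age difference in KO, 0 members, became 2 without ZT16 and ZT20. Tests of variation with time, sex or age and of the rhythm difference called 0 members in every setting run. The cause was not tested.

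Signs changed only for members that were not called. Ggps1 was at -0.02 without ZT16 and ZT20, -0.07 in females and -0.23 at 13.9 weeks. Mbtps1 was at -0.01 in males and in younger mice, and Mbtps2 at -0.09 at 13.9 weeks. Tmem97 was at 0.06 in males, 0.02 at 13.9 weeks and 0.01 with body weight. Mylip was at -0.04 in males, -0.06 with body weight and -0.01 without mice under 16 g. Soat2 was at -0.01 with DESeq2 size factors, a minimum of 1 CPM or DESeq2, -0.13 without ZT16 and ZT20, -0.11 in males, -0.07 at 13.9 weeks and without the 2 lowest libraries, -0.09 with body weight, -0.04 without mice under 16 g, 0.00 with the cage block, and -0.05 to 0.04 with a library left out.

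No paired analysis was possible because the labels number no replicates, and the numbers used here only follow the order of the samples. The labels do name 20 cages, and the correlation of mice within a cage, estimated over all genes with group means and sex in the model, was -0.0907. At a median of 12744399 reads a library, depth limited chiefly Soat1, at 8 to 65 reads.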

Other observations

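Of 11 genes of cholesterol export and storage and the sterol receptor LXR, 3 rose, 2 fell and 6 were not called, a share of 45.5% called against 35.7% of all genes tested, with a median difference of 0.03. Abcg5 and Abcg8, which together export sterols into bile, rose in KO by 0.84 ± 0.12 (edgeR, adjusted p = 2.6e-06) and 0.85 ± 0.12 (adjusted p = 3e-06). Scarb1, the receptor of high-density lipoprotein, rose by 0.64 ± 0.12 (adjusted p = 0.00018). Abca1, which loads cholesterol onto apolipoproteins, fell by 0.25 ± 0.09 (adjusted p = 0.022) and Npc1, which moves cholesterol out of lysosomes, by 0.34 ± 0.12 (adjusted p = 0.033). The call on Npc1 was lost without any 1 of 13 libraries. The other 6, Nr1h3, Nr1h2, Abcg1, Npc2, Lipa and Osbp, were between -0.21 and 0.09 and none was called. Abcg8 at ZT20 was at 43.3, 32.8 and 24.3 CPM in WT and at 140, 89.9 and 111 CPM in KO, with no overlap.

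Of 8 genes of the branches that leave the pathway for ubiquinone, dolichol and prenylated proteins, 1 was called (12.5%). Over all genes tested 35.7% were called and 17.6% were higher in KO. Pdss2, a subunit of the enzyme that makes the ubiquinone side chain, rose by 0.56 ± 0.07 (adjusted p = 2.2e-07), while its partner Pdss1 was at -0.26 ± 0.14 (adjusted p = 0.15).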
